A study of Schizosaccharomyces pombe with 6 samples.

Results

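The telomere-linked helicase genes tlh1 (SPAC212.11, chromosome I) and tlh2 (SPBCPT2R1.08C, chromosome II) of the fission yeast Schizosaccharomyces pombe were followed through 6 small RNA libraries. Their members are the intervals of the deposited peak list that overlap either gene's small RNA region by at least 1 bp, 4 of 11033 peaks, with 2 on each gene. The rule used positions only, but its regions begin and end where the 4 peaks do. The peaks come from small RNA signal of this series, so the members were not chosen apart from the values tested. The study is titled for Dicer and the chaperone Hsp104, and its strains were grown at 30 °C or at 37 °C. RNA of 18 to 28 nt was purified from total RNA of cells grown in YES medium.

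The library labelled dcr delta came from strain spb309 at 30 °C. The wild-type libraries at 30 °C were 1 of strain spb80 and 2 of strain spb75. Strain spb75 was also grown at 37 °C and sampled after 8 hours and after 7 days, with 1 library each. Apart from the dcr deletion the labels name no allele. The libraries held 7106568 reads over peaks in dcr delta, 5790804 to 15723318 in wild type at 30 °C, 12910992 after 8 h and 7025811 after 7 days at 37 °C. The part of dcr1 that was deleted is not given in the sources used here. All 5 peaks on dcr1 held reads in the library labelled dcr delta, with 20.0 to 115 reads each there and 0 to 60 in the wild-type libraries at 30 °C. On each of these 5 peaks the dcr delta library held more reads, unscaled, than every wild-type library at 30 °C. The reason was not tested. tRNA genes took 24.8 to 39.1% of reads in the 4 libraries at 30 °C, 67.7% after 8 h and 58.6% after 7 days at 37 °C.

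In fission yeast, RNA interference acts on heterochromatin, the packed and silenced DNA at centromeres, chromosome ends and the mating-type region. Dicer cuts double-stranded RNA from repeats into siRNAs, and an Argonaute protein carries these to the matching transcripts, where enzymes that methylate histone H3 are brought in. The tlh genes lie next to the telomeres, encode helicases of the RecQ family, are silenced in growing cells, and carry a stretch that resembles the dh repeat of the centromeres.

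The 4 peaks lay inside coding sequence. On tlh1 a narrow peak of 566 bp covered chrI:3120-3685 and a wide peak of 934 bp covered chrI:3687-4620. On tlh2 a narrow peak of 282 bp covered chrII:4528099-4528380 and a wide peak of 1074 bp covered chrII:4528382-4529455. Coordinates are those of the deposited list and are read here against RefSeq assembly ASM294v3. The list names no build, but 212 of 243 tRNA, snoRNA and snRNA genes of this assembly held a peak, against 38 to 60 after the list was shifted by 200 to 2000 bp. tlh1 is read from the minus strand and tlh2 from the plus strand. The annotation also places antisense lncRNAs there, SPNCRNA.2003 under the wide tlh1 peak and SPNCRNA.6649 under both tlh2 peaks, with SPNCRNA.6648 under the narrow tlh2 peak as well. Every peak carries the same strand symbol, so sense and antisense small RNAs could not be told apart.

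The genes are mirrored copies. Over the 5662 bases of tlh1 in the assembly, tlh2 differed at 1 base, and under the 4 peaks it differed at 0. Counted from the first base of the gene, the wide tlh1 peak covers bases 1043 to 1976 (codons 348 to 659) and the narrow tlh1 peak bases 1978 to 2543 (codons 660 to 848). The narrow tlh2 peak covers bases 1215 to 1496 (codons 405 to 499) and the wide tlh2 peak bases 1498 to 2571 (codons 500 to 857), of the 1919 codons of tlh2. The 4 peaks are therefore 1 sequence divided at different places, and a read that matches it cannot be assigned to either gene. Of all reads on the 4 peaks, 48.1 to 52.3% were counted on tlh1 in the 6 libraries. The 4 peaks are not independent measurements, and no statement below tells tlh1 from tlh2.

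The narrow tlh2 peak is shown first because none of its 18-mers, 22-mers or 28-mers occurs elsewhere in the assembly off the tlh genes, so that, within the assembly, reads that match it exactly match only these genes. The other sequences show the end of the narrow tlh1 peak that resembles the dh repeat, and the copy it resembles. In the tlh1 stretch (chrI:3439-3685, minus strand) capitals mark the 96 bases covered by 22-mers that also occur off the tlh genes. In the centromere copy (chrI:3788032-3788284, minus strand, in lncRNA SPNCRNA.3688) capitals mark the bases that differ from, or are inserted against, tlh1. The narrow tlh2 peak is chrII:4528099-4528380 on the plus strand.

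tlh2 peak: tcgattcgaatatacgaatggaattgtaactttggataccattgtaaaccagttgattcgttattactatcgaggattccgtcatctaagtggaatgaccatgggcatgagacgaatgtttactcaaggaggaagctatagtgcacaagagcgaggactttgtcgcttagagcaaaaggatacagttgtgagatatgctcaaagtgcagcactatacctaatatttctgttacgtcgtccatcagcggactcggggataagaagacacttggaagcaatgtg
tlh1 stretch like dh: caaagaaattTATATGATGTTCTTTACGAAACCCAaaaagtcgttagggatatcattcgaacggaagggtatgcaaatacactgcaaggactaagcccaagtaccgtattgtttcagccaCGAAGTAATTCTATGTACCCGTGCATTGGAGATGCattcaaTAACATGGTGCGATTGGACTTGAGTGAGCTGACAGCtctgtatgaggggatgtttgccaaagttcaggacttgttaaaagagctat
centromere copy: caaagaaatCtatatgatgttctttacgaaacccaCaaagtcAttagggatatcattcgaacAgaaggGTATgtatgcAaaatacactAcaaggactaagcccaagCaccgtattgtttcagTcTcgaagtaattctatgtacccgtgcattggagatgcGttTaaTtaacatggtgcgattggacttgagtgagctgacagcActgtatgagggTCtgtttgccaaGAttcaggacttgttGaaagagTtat

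The centromere copy of 253 bases occurs 9 times in the assembly with identical letters, and its alignment to the 247 bases of tlh1 has 17 mismatches and 6 gapped positions, with a longest identical run of 36 bases. Small RNAs of 22 nt from this stretch can therefore match both places in part. Weaker likeness to the centromere repeats also lies outside this stretch. BLAST matched 360 bases of the wide tlh1 peak at 78.4 to 87.9% identity and 158 bases of the narrow tlh2 peak at 78.4 to 79.8%. In the wide tlh2 peak it matched 478 bases at 79.7 to 86.1%, and these include the 247-base stretch. The dh-like stretch below is the 247 bases of the narrow tlh1 peak, which the wide tlh2 peak also covers. Of all 22-mers, 6.97% of those in the narrow tlh1 peak, 3.89% in the wide tlh2 peak, 0.329% in the wide tlh1 peak and 0 in the narrow tlh2 peak also occur off the genes. Across the region under the peaks the share was 2.72%, against 20.3% in the rest of tlh1. In the deposited values these peaks hold fractions of reads.

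**Figure D1:**
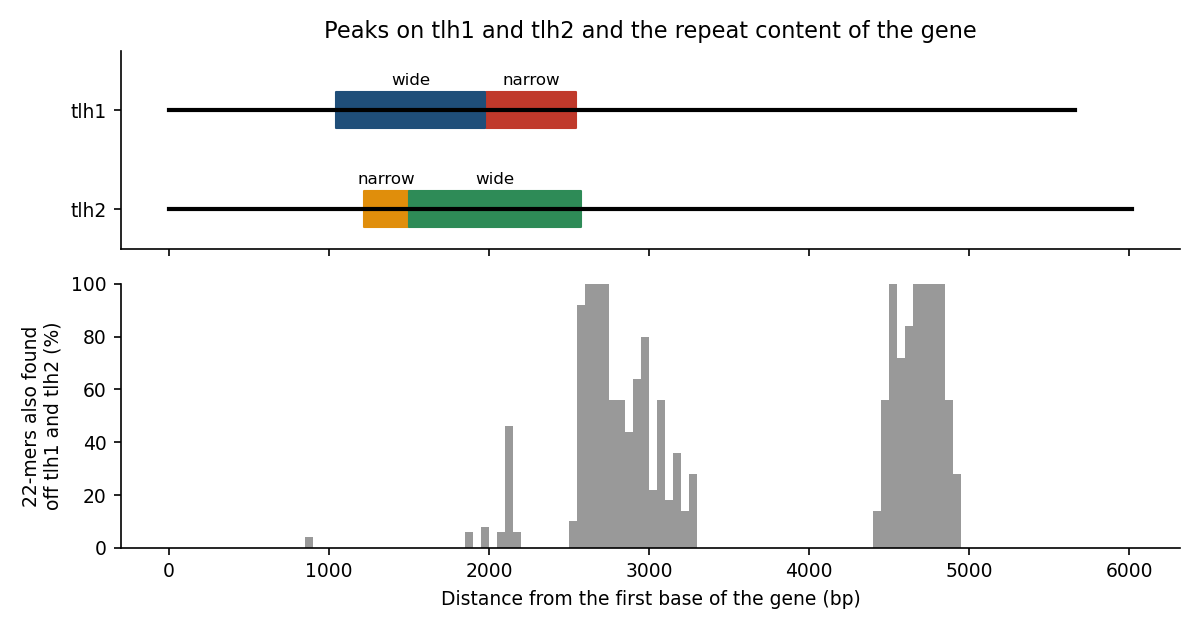
Upper panel: the 4 peaks (coloured bars) on tlh1 and tlh2 (black lines), by distance in bp from the first base of the gene. Lower panel: percent of 22-mers in each 50 bp of tlh1 that also occur off both genes. The end of the peaks farther from the start of the gene lies where the share climbs, to 92.0% or more between bases 2551 and 2700. The narrow tlh2 peak lies over a stretch with a share of 0.

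Small RNA levels below are reads per peak of the mean width (71.0 bp), normalised so that the bulk of the peaks match between libraries. On the narrow tlh2 peak the level was 0.585 in the library labelled dcr delta, against 171 in spb80, 414 in spb75 replicate 1 and 131 in spb75 replicate 2 at 30 °C. In spb75 at 37 °C it was 222 after 8 h and 32.7 after 7 days. The dcr delta library lay far below all others, the 8 h library lay between the spb75 replicates at 30 °C, and the 7 day library lay below both.

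On the narrow tlh1 peak, which holds the dh-like stretch, the level was 1.28 in dcr delta, against 312 in spb80 and 479 and 274 in the spb75 replicates at 30 °C. It was 262 after 8 h and 113 after 7 days at 37 °C. Here the 8 h library lay just below the lower spb75 replicate, and the order of the 7 day and dcr delta libraries was as on tlh2.

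The wide tlh1 peak had 0.532 in dcr delta, 167 in spb80, 323 and 142 in the spb75 replicates at 30 °C, 166 after 8 h and 32.5 after 7 days. The wide tlh2 peak had 1.07 in dcr delta, 252 in spb80, 378 and 224 in the spb75 replicates at 30 °C, 206 after 8 h and 77.5 after 7 days. On all 4 peaks spb75 replicate 1 was the highest library, 7 days at 37 °C the lowest wild-type library and dcr delta the lowest of all. The spb80, spb75 replicate 2 and 8 h libraries lay close together against the distance between the spb75 replicates at 30 °C, and their order changed from peak to peak.

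**Figure D2:**
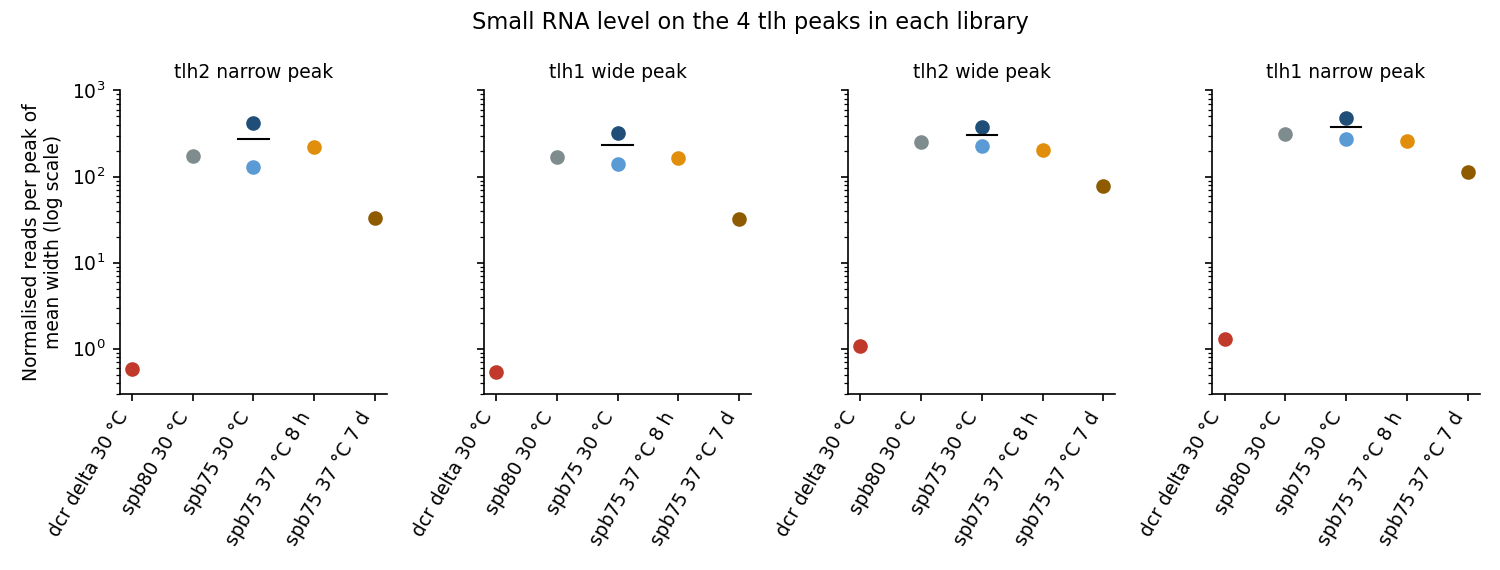
Normalised reads per peak of mean width (log axis) on each of the 4 peaks, 1 point per library. The bar is the mean of the 2 spb75 libraries at 30 °C (dark blue replicate 1, light blue replicate 2). The dcr delta points lie between 0.532 and 1.28, the points after 7 days at 37 °C between 32.5 and 113, and all other wild-type points at or above 131.

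As a share of reads over all peaks, the 4 tlh peaks held 0.000452% in dcr delta, with a 95% Wilson interval of 0.000319 to 0.000636%. The share was 0.134% ± 0.0309 in wild type at 30 °C (SD, n = 3), 0.0523% after 8 h and 0.0254% after 7 days at 37 °C. With reads on tRNA and rRNA genes left out of the total, the share was 0.00263% in dcr delta, 0.358% ± 0.0694 in wild type at 30 °C (SD, n = 3), 0.340% after 8 h and 0.146% after 7 days. The 8 h share was thus below the 30 °C libraries on the first measure, and between them on the second. The share is of RNA in the library, and fewer cells that make these RNAs and less RNA per cell cannot be told apart.

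Whether small RNAs of the tlh genes need Dicer was asked by comparing dcr delta with the 3 wild-type libraries at 30 °C. All 4 tlh peaks fell. The log2 ratios were -7.24 on the narrow tlh1 peak (limma, SE 0.50, adjusted p = 0.000161), -7.01 on the wide tlh1 peak (SE 0.57, adjusted p = 0.000175), -7.06 on the narrow tlh2 peak (SE 0.66, adjusted p = 0.00036) and -7.07 on the wide tlh2 peak (SE 0.50, adjusted p = 0.000161). Of 8274 peaks tested, 72 (0.870%) fell and 2 (0.0242%) rose at adjusted p under 0.05, and the median of all log2 ratios was -0.05. dcr delta has 1 library, which was assumed to vary like the wild type. The 4 peaks were taken from signal that is high in wild type, so the members were not chosen apart from the values tested.

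These ratios are on the scale of log2(level + 1), which understates the change of such low values. In reads, dcr delta held 9.16, 6.28, 2.08 and 14.6 on the narrow and wide tlh1 and the narrow and wide tlh2 peaks. The wild-type libraries at 30 °C held 2214 to 6288 reads on the narrow tlh1 peak and 526 to 2710 on the narrow tlh2 peak. By counts scaled for depth, the narrow tlh2 peak, which shares no 22-mer with other loci, was 470-fold lower (95% interval 130 to 3886). The narrow tlh1 peak was 297-fold lower (156 to 649), the wide tlh1 peak 446-fold lower (205 to 1215) and the wide tlh2 peak 270-fold lower (164 to 482). The intervals cover counting error only and take the dcr delta reads as whole numbers, rounded to 9, 6, 2 and 15 in the order above. The peaks are copies of the same sequence and hold fractions of reads, so the intervals are approximate. They overlap, but for peaks that share reads this cannot decide whether the peaks differ. A difference among the peaks was not tested.

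Short heat was compared with 30 °C in spb75. After 8 h at 37 °C none of the 4 tlh peaks passed the test. The log2 ratio was -0.07 on the narrow tlh2 peak (95% interval -1.49 to 1.36) and -0.47 on the narrow tlh1 peak (-1.74 to 0.81). The wide peaks had -0.36 on tlh1 and -0.50 on tlh2, and adjusted p over the 4 lay between 0.713 and 0.975 (limma). Of all peaks tested, 0.0967% fell and 0.568% rose, and 1275 had an unadjusted p under 0.05. All 4 intervals include a 2-fold fall, so a fall of that size was not detectable with 1 library against 2. Without spb75 replicate 1 the median of the 4 ratios was 0.082, against -0.41 with it.

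Prolonged heat was compared with 30 °C in the same strain. After 7 days at 37 °C the log2 ratios were -2.79 on the narrow tlh2 peak (SE 0.65, unadjusted p = 0.000488, adjusted p = 0.110, limma) and -2.68 on the wide tlh1 peak (SE 0.59, adjusted p = 0.107). They were -1.90 on the wide tlh2 peak (SE 0.58, adjusted p = 0.200) and -1.67 on the narrow tlh1 peak (SE 0.59, adjusted p = 0.314). The 7 day level was below both 30 °C replicates on 4 of 4 peaks, and 3.19-fold to 6.92-fold below their mean on this scale, and 0 of 4 passed the threshold over all peaks. The size rested on the replicates. Against spb75 replicate 2 alone the log2 ratio was -1.96 on the narrow tlh2 peak and -1.27 on the narrow tlh1 peak, and against replicate 1 alone it was -3.62 and -2.08. In this comparison 0 of 8274 peaks passed in either direction (0% lower, 0% higher), and 778 had an unadjusted p under 0.05, the 4 tlh peaks among them. Only 0.302% of the tested peaks had a lower log2 ratio than the narrow tlh2 peak, and 2.78% a lower one than the narrow tlh1 peak.

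The 7 day library was also set directly against the 8 h library, in a fit of the 4 spb75 libraries. The log2 ratios were -2.73 on the narrow tlh2 peak (SE 0.75, limma adjusted p = 0.138), -2.32 on the wide tlh1 peak (SE 0.69, adjusted p = 0.171), -1.40 on the wide tlh2 peak (SE 0.67, adjusted p = 0.477) and -1.21 on the narrow tlh1 peak (SE 0.69, adjusted p = 0.566). The 7 day level was lower on 4 of 4 peaks and 0 of 4 passed, where 0.254% of all peaks fell and 0.0483% rose. Of all peaks, 874 had an unadjusted p under 0.05. Each side has 1 library, so the spread comes from the 30 °C replicates. The heat comparisons share their control libraries and are not independent of each other.

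The wild-type strains were compared at 30 °C, and on all 4 tlh peaks the 95% interval includes a 2-fold lower level in spb80. A difference of that size was thus not detectable with 1 library against 2. The log2 ratios of spb80 over spb75 were between -0.44 on the narrow tlh2 peak (95% interval -1.87 to 0.99) and -0.20 on the wide tlh2 peak (-1.42 to 1.02), and limma's adjusted p was 0.986 to 0.998. Of all peaks, 0.0846% were lower and 0% higher in spb80, and 543 had an unadjusted p under 0.05. The spb80 level lay between the spb75 replicates on 4 of 4 peaks, and without spb75 replicate 1 the median ratio was 0.21, against -0.28 with it.

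**Figure D3:**
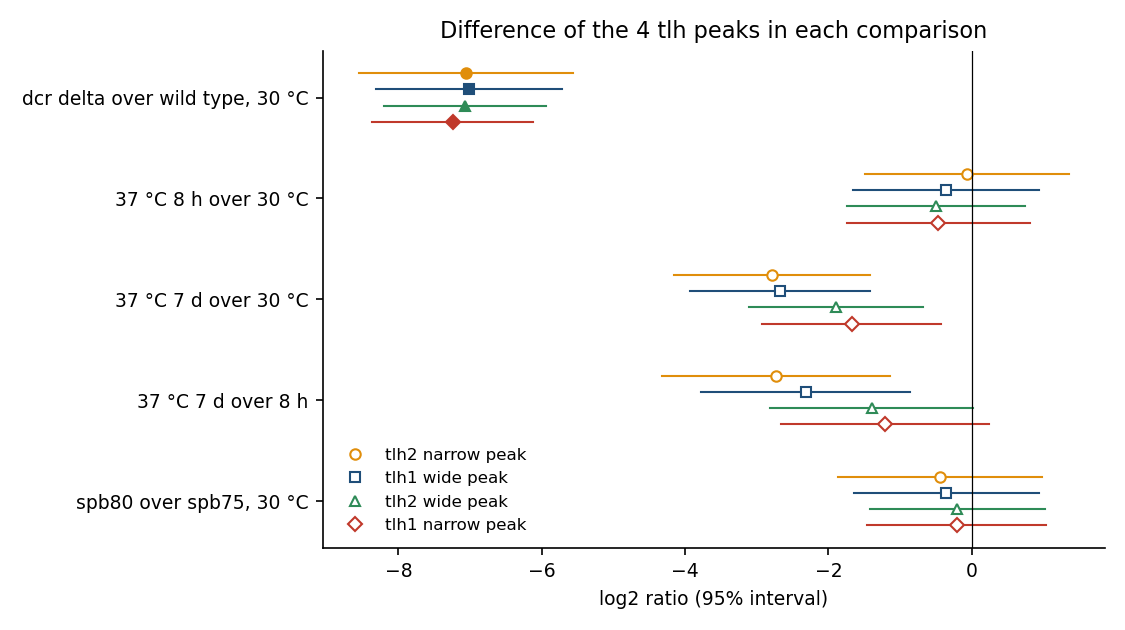
log2 ratios of the 4 tlh peaks in the 5 comparisons, with 95% intervals from limma; filled symbols passed adjusted p under 0.05. The dcr delta ratios lie between -7.24 and -7.01. The ratios after 8 h at 37 °C lie between -0.50 and -0.07, and those after 7 days between -2.79 and -1.67.

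Because the copies were divided at different places, differences between overlapping peaks give levels along 1 gene. Bases 1978 to 2543, which hold that 247-base stretch, had a higher level than the narrow tlh2 peak in all 6 libraries. The level was also above both remainders, wide tlh2 without narrow tlh1 and wide tlh1 without narrow tlh2. These remainders share 479 bases and are not separate stretches. The narrow tlh1 peak, which covers bases 1978 to 2543, exceeded the narrow tlh2 peak by a factor of 2.19 in dcr delta, on 9.16 and 2.08 reads. At 30 °C the factor was 1.83 in spb80, 1.16 in spb75 replicate 1 and 2.10 in replicate 2. At 37 °C it was 1.18 after 8 h and 3.44 after 7 days. The 7 day library thus stood apart from the other wild-type libraries, with 1 library and no test of this ratio.

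The narrow tlh2 peak in turn can be set against the bases on its sides, taken as the wide tlh1 peak without the narrow tlh2 peak. In spb80 the narrow tlh2 peak had 171 and its sides 165. In spb75 at 30 °C the values were 414 on the peak and 284 on its sides in replicate 1, and 131 and 147 in replicate 2. After 8 h the peak had 222 and its sides 142, and after 7 days the peak had 32.7 and its sides 32.4. The narrow tlh2 peak stood above its sides in spb75 replicate 1 and after 8 h, and lay close to them in the other 3 wild-type libraries. This subtraction takes a read to count equally on both copies.

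Upstream of the gene the mirrored blocks hold 2 further pairs of peaks, and there the libraries spread far more. The peak at chrI:7004-7131, on no annotated feature, had 0.309 in dcr delta, against 148 in spb80, 417 in spb75 replicate 1 and 11.5 in replicate 2 at 30 °C. It had 87.3 after 8 h and 2.45 after 7 days at 37 °C. Its mirror at chrII:4525417-4525548 had 0.300 in dcr delta, against 148, 414 and 11.1 in the same wild-type libraries. The spb75 replicates at 30 °C thus differed by a factor of 36.3 here, against 1.68 to 3.17 on the 4 tlh peaks.

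Farther upstream, the peak at chrI:7579-7665 on the lncRNA SPNCRNA.2006 had 0.303 in dcr delta, against 38.1 in spb80, 82.5 in spb75 replicate 1 and 1.61 in replicate 2. It had 11.8 after 8 h and was at 0 reads after 7 days. The replicates differed by a factor of 51.2, on 166.5 reads in replicate 1 and 2 in replicate 2. Over the 43 subtelomeric peaks outside the tlh genes the median of replicate 1 over replicate 2 was 1.07 (range 0.215 to 52.1). This ratio exceeded 5 on 4 peaks, those of these mirrored pairs. Among subtelomeric peaks, the 2 libraries that form the 30 °C side of the heat comparisons thus differed most right beside tlh1 and tlh2. The part of this spread in the heat results was not tested.

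**Figure D4:**
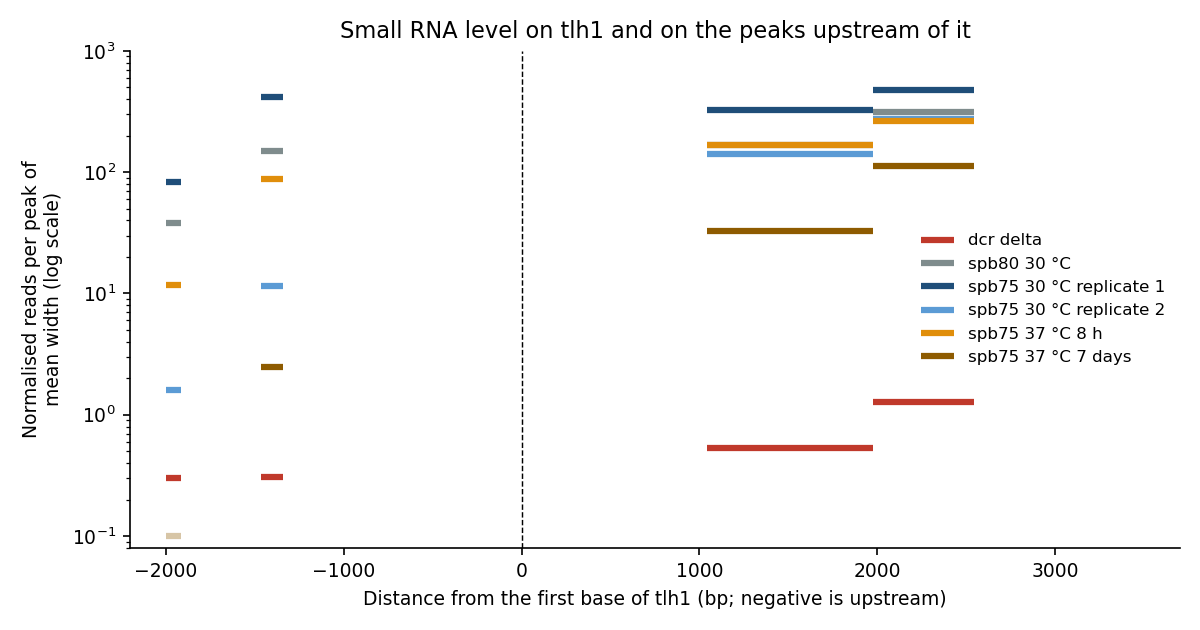
Normalised reads per peak of mean width (log axis) on the 2 tlh1 peaks and on the 2 peaks upstream of them, by distance from the first base of tlh1, 1 colour per library; a value of 0 (7 days, far left) is drawn pale at 0.1. The spb75 replicates at 30 °C lie at 479 and 274 on the narrow tlh1 peak and at 417 and 11.5 on the nearer upstream peak.

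The tlh peaks were set beside other heterochromatin. In dcr delta their median log2 ratio was -7.06. It was -5.59 over the 43 other subtelomeric peaks within 50 kb of an end of chromosome I or II, of which 27 fell. Peaks near the ends of chromosome III were not taken into this set. Over the 40 pericentromeric peaks without a tRNA gene the median was -7.14, and 40 fell. Of all 8274 peaks tested, 0.870% fell. Copies of repeats share values, so the 43 subtelomeric peaks held 35 distinct log2 ratios and the 40 pericentromeric peaks 27, and the peaks of a set are not separate measurements. Of the 16 subtelomeric peaks that were not called, 10 had log2 ratios between -0.39 and 1.21, among them 7 in SPAC750.01, and 6 had ratios between -6.13 and -3.93, among them the 4 upstream peaks of the tlh blocks. After 8 h at 37 °C the medians were -0.41 on the tlh peaks, -0.58 on the subtelomeric peaks and -0.67 on the pericentromeric peaks. After 7 days they were -2.29 on the tlh peaks, -1.80 on 40 subtelomeric peaks that passed the filter on low values and -2.002 on the pericentromeric peaks. In both heat comparisons 0 peaks of these sets passed limma's test. Of all tested peaks 0.0967% fell and 0.568% rose after 8 h, and 0% passed after 7 days. The median over all peaks was -0.01 in both heat comparisons. No difference between the sets was tested.

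**Figure D5:**
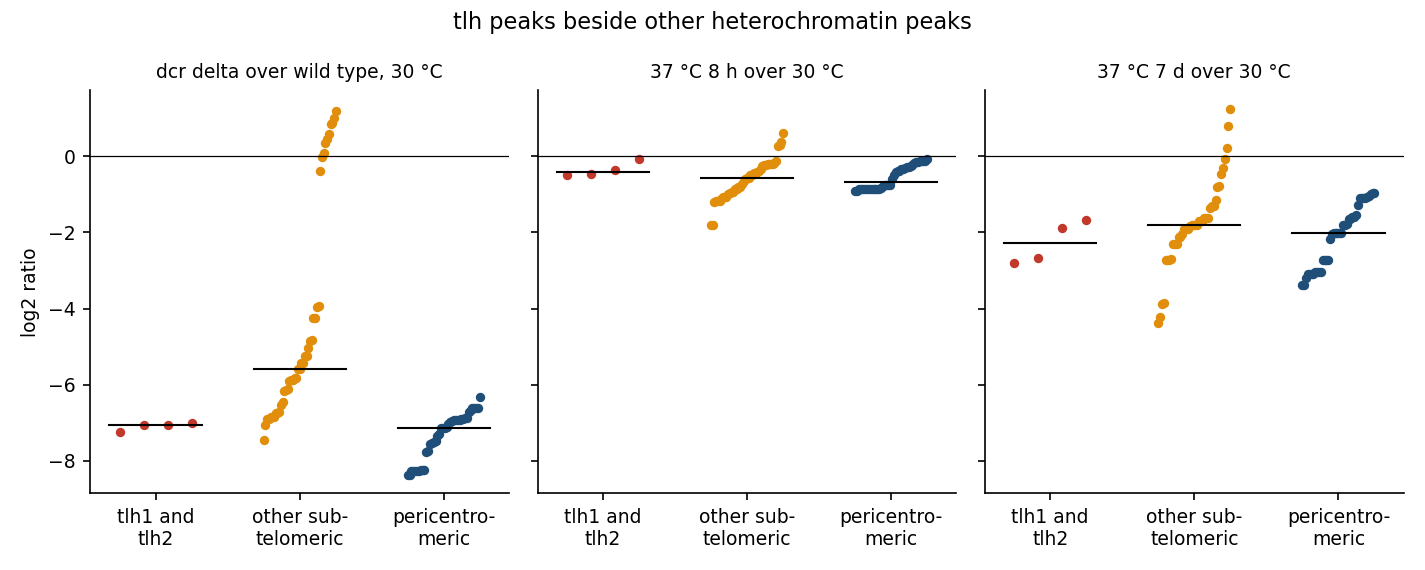
log2 ratios of the tlh peaks, the other subtelomeric peaks and the pericentromeric peaks without a tRNA gene, 1 point per peak, with the median as a bar. In dcr delta the subtelomeric peaks fall into a group near 0 and a group between -7.46 and -3.93, and the 4 tlh peaks lie with the lower group.

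The tlh genes held most of the reads on subtelomeric peaks in wild type. Their peaks are 282 to 1074 bp wide, against a mean of 71.0 bp over all peaks, and a wider peak gathers more reads. Their 4 peaks took 4.91% of the reads on all subtelomeric peaks in dcr delta, on 32.1 reads, against 66.7 to 72.6% in wild type at 30 °C. They took 75.1% after 8 h and 66.2% after 7 days at 37 °C. Beside the centromeres their output was small in every library. The reads on the tlh peaks equalled 0.388% of those on the pericentromeric peaks in dcr delta, against 0.561% in spb80 and 0.711% and 0.857% in the spb75 replicates at 30 °C. They equalled 0.698% after 8 h and 0.469% after 7 days at 37 °C. By level per mean width, most but not all other subtelomeric peaks lay below the tlh peaks at 30 °C. The peak at chrI:5573573-5573690 had 474 and 276 in the spb75 replicates at 30 °C, against 479 and 274 on the narrow tlh1 peak.

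The centromere copies of the dh-like stretch lie in 9 peaks, whose levels were 14.4 to 20.7 in dcr delta and 1398 to 3774 in the 3 wild-type libraries at 30 °C. After 8 h they had 1564 to 2004 and after 7 days 598 to 990. Their log2 ratios were -7.14 to -6.67 in dcr delta, -0.41 to -0.13 after 8 h and -1.80 to -1.08 after 7 days. The narrow tlh1 peak, with -7.24, -0.47 and -1.67, lay within the range of these copies after 7 days and just below it in dcr delta and after 8 h. The narrow tlh2 peak, with -7.06, -0.07 and -2.79, lay within the range in dcr delta, above it after 8 h and below it after 7 days. Any reads shared between these places enter both values, and their part was not tested.

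By the smallest root-mean-square difference of centred log2 levels over the 6 libraries, the pattern most like the mean of the tlh peaks was that of the subtelomeric lncRNA SPNCRNA.6641 (chrII:4518846-4518891), with a difference of 0.17 and r = 0.998. Its levels were 0.123 in dcr delta, 146 in spb80, 217 and 107 in the spb75 replicates at 30 °C, 118 after 8 h and 43.0 after 7 days. The wide tlh2 peak matched 61 bases at 96.7% identity on this lncRNA (chrII:4518950-4519010), outside the peak named here. The next 4 were pericentromeric peaks in the lncRNAs SPNCRNA.3673, SPNCRNA.5257, SPNCRNA.5273 and SPNCRNA.7210, with differences of 0.23 to 0.26. Of these, 3 hold a copy of the dh-like stretch. The peak in SPNCRNA.3673 does not, but it aligned to the wide tlh1 peak over 206 positions at 87.9% identity. The members themselves differed from their mean by 0.16 to 0.29. All these values rest on the same 6 libraries, of which the dcr delta library lies far below the others in every one of these peaks.

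Genes that act on such small RNAs were read from the same libraries. Of 25 genes for RNA interference and heterochromatin, 17 held a peak, with 43 peaks in all. In dcr delta 0 of their 20 tested peaks fell and 0 rose, and 3 had an unadjusted p under 0.05 (limma). Over all tested peaks 0.870% fell and 0.0242% rose there, so 0 calls do not set the list apart. The peak with the highest mean was 1 of 4 in epe1, which encodes a factor that opposes heterochromatin. It had 124 in dcr delta, against 69.3, 200.05 and 141 in wild type at 30 °C.

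After 8 h at 37 °C 2 of the 21 tested peaks of this list rose and 0 fell. Over all tested peaks 0.568% rose and 0.0967% fell. swi6, which encodes the HP1 protein of heterochromatin, held 3 peaks. The called one (chrI:1703908-1703946) had 428 after 8 h, against 28.7 and 32.3 in spb75 at 30 °C. Its log2 ratio was 3.77 (limma, SE 0.53, adjusted p = 0.00589). eri1, which encodes a nuclease that degrades siRNA, held 5 peaks. The called one (chrII:1321048-1321084) had 129 after 8 h, against 16.3 and 20.8 at 30 °C. Its log2 ratio was 2.74, with SE 0.59 and limma adjusted p = 0.0490. The eri1 call was lost in 6 of 7 alternatives, with adjusted p of 0.0325 to 0.421, and the swi6 call in 2, with adjusted p of 0.00423 to 0.399. After 7 days 0 of 18 tested peaks passed, 1 had an unadjusted p under 0.05, and the swi6 peak was at 29.5, a log2 ratio of -3.81 against 8 h (SE 0.62, adjusted p = 0.0235, with 0.0169 to 0.999 in the alternatives), the only one of 20 tested peaks of the list called there. Between spb80 and spb75 0 of 18 passed, and 2 had an unadjusted p under 0.05. Over all tested peaks 0% passed after 7 days against 30 °C. For 7 days against 8 h 0.254% fell and 0.0483% rose, and 0.0846% were lower and 0% higher in spb80. The strand of these small RNAs is not known here.

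Of 12 genes for telomere proteins and telomerase, with its RNA gene ter1 among them, 9 held a peak. None of their peaks passed the test in any of the 5 comparisons, in each of which 14 to 17 peaks were tested and 0 to 2 had an unadjusted p under 0.05. Over all tested peaks 0 to 0.870% passed in a direction, so the lack of calls does not set this list apart. The peak with the highest mean was 1 of 6 in tpz1, which encodes a bridge protein of the telomere complex. It had 23.4 in dcr delta, against 64.2 in spb80 and 48.2 and 47.0 in spb75 at 30 °C. It had 96.1 after 8 h and 66.1 after 7 days at 37 °C.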

How the data were processed

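Per the labels' protocols, RNA of 18 to 28 nt was gel-purified from hot-phenol total RNA and sequenced with the Illumina TruSeq small RNA protocol. The submitters' processing notes name CASAVA 1.8, Bowtie 0.9.9.1 and MACS, without saying what each was used for. The genome build is not given in the sources used here, and coordinates are as listed. The list deposited by the authors has 11033 peaks with 1 signal value per library. Its columns name no wild-type strain, and the wild-type 30 °C column without a replicate number was taken as spb80, whose title alone carries none. Read from its values, the deposited signal is the reads on a peak times the mean peak width (71.0 bp) over that peak's width. The spb80 and dcr delta columns carry an added 8, which was subtracted, and 1 read counts as 1.48 in the dcr delta column, which was divided out. With this done, 73.6 to 92.4% of values were within 0.01 of a whole read.

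Libraries were scaled by trimmed means of log ratios (30% and 5% trimmed) and tested with limma 3.58.1 (R 4.3.3, variance trend) on log2(level + 1), after dropping the lowest 25% of peaks by mean in each comparison, with Benjamini-Hochberg adjustment over the 8274 left. All 4 tlh peaks passed this filter. In the dcr delta comparison their mean came from the wild-type libraries, as their dcr delta levels were 0.532 to 1.28. The file holds signal, and a count test was not run on the reads recovered from it. Sequences came from RefSeq (ASM294v3), searched with BLAST 2.17.0. Whether the libraries were grown as separate cultures is not in the labels, and p-values thus measure only the spread between these samples. Reads carry no molecular identifiers, so intervals cover counting error only. The named peaks are the 4 members, the 5 most alike in pattern, and of each gene list the called peaks or, failing those, the one with the highest mean. The members and lists were chosen with earlier results of these data known. The recipe was tested on simulated data.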

Additional observations from a re-analysis of the deposited data

How the results depend on the processing

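The loss in dcr delta was called for 4 of 4 tlh peaks in the 10 alternatives run on peaks, and for both genes with reads summed per gene, with median log2 ratios of -8.13 (reads summed per gene) to -4.54 (pseudocount 10) and adjusted p up to 0.00575. Without 1 wild-type library the median was -7.32 to -6.75. With the added 8 kept, the dcr delta share was 0.00347% in place of 0.000452%. After 7 days at 37 °C the tlh peaks stayed below 30 °C in all 10 alternatives and short of the threshold in the 8 that leave a test, with medians of -2.77 to -1.74 and adjusted p of 0.102 to 0.999. Without 1 spb75 library the narrow tlh2 peak was at -3.62 to -1.96 and the narrow tlh1 peak at -2.08 to -1.27. Against 8 h the medians were -1.89 to -1.25.

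The strain direction rested on spb75 replicate 1 for 4 of 4 peaks, and the 8 h direction for the wide tlh1 and narrow tlh2 peaks. Without 1 spb75 library, which leaves a value and no test, the 8 h median was -0.88 to 0.082 (wide tlh1 peak -0.95 to 0.23, narrow tlh2 peak -0.89 to 0.76); the narrow tlh1 peak (-0.87 to -0.066) and the wide tlh2 peak (-0.87 to -0.12) stayed below 0. The strain median was -0.78 to 0.21 (tlh1 narrow peak -0.61 to 0.19 and wide peak -0.95 to 0.24, tlh2 narrow peak -1.27 to 0.39 and wide peak -0.58 to 0.17). In each range with a value above 0, that value is the one without replicate 1. With total signal as the scale the 8 h tlh median was -1.51, where the median of all peaks moved to -1.11; that median moved to -0.50 after 7 days, 0.58 for 7 days against 8 h and -0.30 between strains. Without tRNA and rRNA reads in the total the wild-type share at 30 °C was 0.358% in place of 0.134%.

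Counts over all peaks moved more: in dcr delta 72 fell and 2 rose, against 38 to 92 and 1 to 8 in the alternatives; after 8 h 8 fell and 47 rose, against 0 to 7 and 0 to 107; for 7 days against 8 h 21 fell and 4 rose, against 0 to 29 and 0 to 2; between strains 7 were lower in spb80, against 0 to 7; after 7 days 0 passed, against 0 to 1 in each direction. In alternatives for the gene lists that were added after seeing the data, the 8 h calls of the RNA interference list numbered 0 to 2 in place of 2, its single call for 7 days against 8 h was lost in 5 of 7, and 1 peak rose in dcr delta with pseudocount 10 or with no variance trend in place of 0. The causes were not tested. No paired analysis was possible because the groups compared share fewer than 2 replicate numbers. The dcr delta values rest on 2.08 to 14.6 reads a peak, and 1 library stands on a side of each test.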
